A study of Mus musculus with 45 samples.

Results

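The genes described here encode the proteasome: its core and regulatory subunits, its activators and the chaperones that assemble it. They were taken as every protein-coding gene whose symbol begins with Psm, a letter from a to g and a digit, which gave 50 of the 55385 genes in the tables. Of these, 49 encode parts or helpers of the proteasome. The remaining one, *Psmc3ip*, matches the symbol only and encodes a factor of meiotic recombination, so its changes with dTAG13 are described apart. It is still counted as a member in every count, share and median of members below.

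The proteasome degrades proteins that carry ubiquitin. Its 20S core is a barrel of alpha and beta rings, in which some of the beta subunits cut the substrate. The 19S particle caps the core, and its ATPases unfold the substrate while its lid removes ubiquitin. Dedicated chaperones assemble the rings and the 19S base, activators such as the 11S ring open the core without ubiquitin, and interferon-induced beta subunits replace the constitutive cutters to make the immunoproteasome. Every subunit type has its fixed place in the particle, and the transcription factor NFE2L1 is known to raise many of the subunit genes together when proteasome activity is short. In cleaving embryos the proteasome takes part in clearing maternal proteins, and ES cells are known for high proteasome activity.

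RNA-seq was available for late two-cell (late 2-cell) embryos, morulae, the inner cell mass of embryonic day 4.5 blastocysts (E4.5 ICM) and 2iES cells. All of these, controls included, were homozygous for *Gabpa*-dTAG, an allele in which the ETS transcription factor GABPA is fused to a degron tag, and each stage compared DMSO with dTAG13, the small molecule that sends the tagged protein to degradation. Embryos came from in vitro fertilisation and received 1 μM dTAG13 in culture, from the zygote to the late 2-cell stage, from the 4-cell stage to the morula, or from the early blastocyst until the ICM (epiblast and primitive endoderm) was freed of its trophectoderm by immunosurgery. By the paper, this ICM was taken at the mid-blastocyst stage, before the treatment groups differed in epiblast cell number. The 2iES cells were E14-derived ES cells in 2i and LIF medium, a line grown from a picked clone, with 0.5 μM dTAG13 for 24 h. There were 3 libraries per group at the late 2-cell stage and 2 per group at the other stages, and by the methods these were independent biological replicates.

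The expected counts of the 18 libraries summed to between 9457933 and 27660132, with the 4 morula libraries lowest. The *Gabpa* transcript was higher with dTAG13 by 0.52 (late 2-cell), 0.74 (morula, adjusted p = 0.152), 0.95 (E4.5 ICM) and 0.93 (2iES) on the log2 scale, which is no check of the degradation, since dTAG13 acts on the protein. That degradation itself runs through the proteasome. Several libraries or groups stood apart. Transcripts of the mitochondrial genome took 0.371% of the counts in 2iES DMSO replicate 1, against 2.17% in replicate 2 and 4.51 to 5.16% with dTAG13. Late 2-cell dTAG13 replicate 1 held 230 TPM (a level scaled for transcript length and for the library's total) of 6 immune cell markers, against at most 11.4 in the other late 2-cell libraries. The E4.5 ICM replicates differed far less than those of the other stages, with a common coefficient of variation of 0.0237 against 0.159 to 0.284, so that very small changes passed the test there. Their counts varied 1.62 and 1.69 times as much as sampling alone gives (median chi-square over genes), against 2.85 to 16.1 times in the other groups. Whether they share material was not tested, and their standard errors and p-values measure only the spread between these libraries.

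GABPA binds the core sequence CCGGAAG, which was searched on both strands. The promoter windows of members that the results turn on are shown first. All of those printed hold this sequence except *Psmb4*, whose fall was among the largest. RefSeq gave a window of 300 bases (250 before and 50 from the annotated start, build GRCm38.p6) for 42 of the 50 members. Each line below prints 170 of these bases, 140 before and 30 from the start, 5′ to 3′ on the strand of the gene. Capitals mark CGGAAG, the core without its first C, on either strand (CTTCCG).
Psmb4, chr3:94886929-94887098, minus strand: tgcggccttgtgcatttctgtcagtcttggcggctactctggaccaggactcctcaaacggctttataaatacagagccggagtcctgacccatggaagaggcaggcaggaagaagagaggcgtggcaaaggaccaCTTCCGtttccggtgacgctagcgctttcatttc
Psma6, chr12:55398685-55398854, plus strand: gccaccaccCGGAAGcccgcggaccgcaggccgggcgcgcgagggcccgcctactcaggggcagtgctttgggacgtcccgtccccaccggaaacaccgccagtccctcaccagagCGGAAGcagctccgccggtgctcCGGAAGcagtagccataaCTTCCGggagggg
Psmc1, chr12:100110062-100110231, plus strand: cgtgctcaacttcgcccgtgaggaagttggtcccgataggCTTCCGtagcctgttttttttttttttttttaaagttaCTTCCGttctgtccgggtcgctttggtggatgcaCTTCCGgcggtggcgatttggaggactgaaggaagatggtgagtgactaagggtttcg
Psmc2, chr5:21786607-21786776, plus strand: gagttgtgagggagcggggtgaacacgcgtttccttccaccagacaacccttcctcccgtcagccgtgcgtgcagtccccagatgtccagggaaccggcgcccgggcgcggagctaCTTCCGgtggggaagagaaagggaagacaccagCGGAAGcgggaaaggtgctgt
Psmd13, chr7:140882254-140882423, plus strand: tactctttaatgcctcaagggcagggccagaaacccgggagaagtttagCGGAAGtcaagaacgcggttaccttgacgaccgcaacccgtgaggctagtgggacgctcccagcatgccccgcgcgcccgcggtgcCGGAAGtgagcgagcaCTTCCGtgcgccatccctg
Psmd6, chr14:14120916-14121085, minus strand: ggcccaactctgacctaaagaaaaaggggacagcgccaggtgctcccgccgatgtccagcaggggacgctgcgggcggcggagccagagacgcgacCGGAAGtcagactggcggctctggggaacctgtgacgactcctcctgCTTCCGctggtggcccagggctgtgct
Psmg3, chr5:139826865-139827034, minus strand: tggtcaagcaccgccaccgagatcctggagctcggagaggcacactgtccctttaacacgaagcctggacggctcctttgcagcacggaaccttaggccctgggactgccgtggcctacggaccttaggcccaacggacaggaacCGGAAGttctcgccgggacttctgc
Psmd12, chr11:107479388-107479557, plus strand: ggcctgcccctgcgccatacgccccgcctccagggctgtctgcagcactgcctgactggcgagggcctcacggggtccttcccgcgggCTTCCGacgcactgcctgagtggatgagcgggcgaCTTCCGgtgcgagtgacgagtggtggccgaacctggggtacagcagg

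The *Psmb4* window held 1 CGGAAG, on the minus strand and starting 4 bases before the start, and no full CCGGAAG. The window of *Psma6* held CCGGAAG at 3 places, and those of *Psmc1*, *Psmc2*, *Psmd13*, *Psmd6*, *Psmg3* and *Psmd12* each held it at 1. *Psma6* and *Psmc2* have 2 RefSeq starts each. The window of the upstream *Psma6* start held no CGGAAG, and the window of the upstream *Psmc2* start also held CCGGAAG.

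The first comparison asked how the proteasome genes stood in the DMSO controls of the successive stages. With DMSO, 47 of the 50 members reached a mean of 1 TPM at the late 2-cell stage and in morulae, and 48 did so in the E4.5 ICM and in 2iES cells. *Psmb8*, an immunoproteasome cutter, and *Psmb11*, the thymus subunit, stayed under 1 TPM in all 4 control groups. *Psma8*, the testis form of an alpha subunit, was under 1 TPM in late 2-cell embryos and morulae. The 14 genes of the constitutive 20S core summed to 4268, 4440 and 4600 TPM in the late 2-cell controls and to 8457 and 10284 TPM in morulae. They summed to 9650 and 9673 TPM in E4.5 ICM controls and to 12386 and 11789 TPM in 2iES controls. The late 2-cell libraries were thus below all the others, and the 2iES libraries above. The core genes were not level with each other: in late 2-cell controls their means ran from 99.8 TPM for *Psma7* to 685 TPM for *Psma3*, and in 2iES controls from 414 TPM for *Psmb4* to 1977 TPM for *Psmb6*.

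Between the late 2-cell stage and the morula, 25 of 49 members tested were higher by at least 2-fold with an adjusted p-value under 0.05 and 3 were lower, beside 26.7% and 33.6% of all 19830 genes tested. The median log2 difference was 1.04 for the members and -0.28 for all genes. *Psmg2*, a chaperone of the alpha ring, held 10.1, 10.41 and 12.0 TPM in late 2-cell controls and 119 and 153 TPM in morula controls, a log2 difference of 3.98 (SE 0.16, edgeR adjusted p = 1.27e-09). *Psma7*, an alpha subunit, followed with 3.91 (SE 0.15), and *Psmg4*, also a ring chaperone, had 2.81 (SE 0.17). The 3 lower members were *Psmd5*, a chaperone of the 19S base (-1.97), *Psme4*, the PA200 activator of the male germ line (-2.001), and *Psmc3ip* (-1.45).

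From the morula to the E4.5 ICM, 5 of 49 members were higher and 2 lower, beside 18.7% and 17% of all genes. Higher were *Psma8* (log2 difference 3.10), *Psme4* (1.44), *Psmd10* (1.26), *Psmd5* (1.24) and *Psmg1* (1.10), and lower were *Psmb10* (-1.61) and *Psmg3* (-1.38). Without the first morula control library the higher count was 2. In 2iES cells 17 members were higher than in the E4.5 ICM and 3 were lower, beside 15.6% and 16.5% of all genes. The largest rises were those of the immunoproteasome cutter *Psmb10* (3.05, SE 0.20), the 11S-like *Psme2b* (2.73) and the 11S genes *Psme1* (2.21) and *Psme2* (1.90). *Psmb9* (-3.56), *Psmd3* (-1.54) and *Psme4* (-1.42) were lower. Scaled by library totals alone, the higher count was 8 and the median of all genes was -0.33, against 0 with the main scaling. Neighbouring comparisons share control libraries, and stage and library preparation cannot be told apart.

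**Figure D1:**
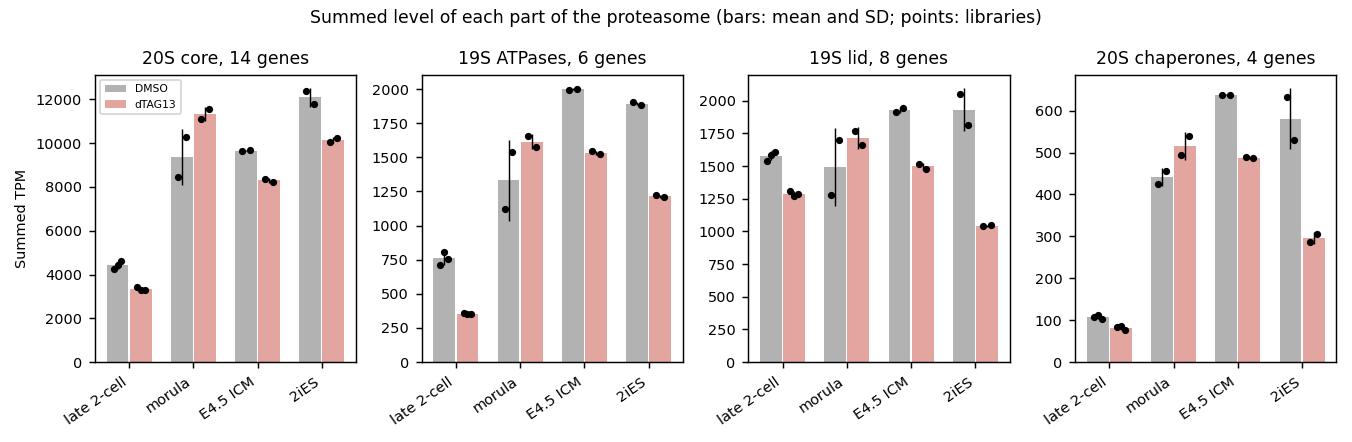
Summed TPM (y axis, linear, from 0) of the 14 constitutive 20S core genes, the 6 19S ATPases, the 8 lid subunits and the 4 chaperones of the 20S core, in DMSO (grey) and dTAG13 (red) libraries of each stage; bars give the mean and SD and points the libraries. The late 2-cell core sums are the lowest, and with dTAG13 the ATPase sum is lower at the late 2-cell stage, in the E4.5 ICM and in 2iES cells but not in morulae.

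In late 2-cell embryos, 23 of the 49 members tested fell with dTAG13 and none rose, where 7.24% of the 17421 genes tested fell and 1.32% rose (edgeR quasi-likelihood test, adjusted p-value under 0.05). Before adjustment, 26 members were lower and 1 was higher at p under 0.05, against 13.3% and 7.93% of all genes, and DESeq2 called 23 lower and 0 higher. The members' median log2 fold change was -0.34, against 0.02 for all genes, and 38 of the 49 were negative, against 47.7% of all genes. A fall of 2-fold or more, in a gene whose mean FPKM reached 1 in 1 group, was called for 9 members, against 3.63% of all genes, and a rise for none (0.476% of all genes), and 26 members had every dTAG13 library below every DMSO library, against 12.8%. The sum of 5 oocyte markers ran from 1350 to 1362 TPM with DMSO and from 1715 to 1943 TPM with dTAG13, and their part in the result was not tested. In the bulk libraries of any stage, fewer cells of a kind and less RNA per cell cannot be told apart from the RNA alone.

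The falls were uneven within each particle. *Psmb4*, a structural subunit of the beta ring, held 200, 231 and 179 TPM with DMSO and 16.5, 13.5 and 21.3 TPM with dTAG13. The groups lay far apart, and the fall was 13.6-fold (log2 fold change -3.77, SE 0.19, edgeR adjusted p = 4.37e-06). *Psma6*, an alpha subunit, went from 597, 669 and 636 TPM to 236, 260 and 274 TPM, again with no overlap (-1.37, SE 0.098, adjusted p = 1.31e-05). Beside them, the 3 constitutive cutters *Psmb5*, *Psmb6* and *Psmb7* had log2 fold changes of -0.15, -0.01 and -0.85, and only *Psmb7* passed the test. With DMSO 10 of the other core genes were above *Psmb4*, and with dTAG13 all 13 were.

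Of the 6 ATPases that form the 19S motor, 5 fell, and their summed level went from 714, 806 and 758 TPM to 358, 353 and 351 TPM. *Psmc1* led them, with 137, 142 and 144 TPM in DMSO libraries and 14.1, 16.4 and 25.6 TPM in dTAG13 libraries, a 7.82-fold fall (-2.97, SE 0.19, adjusted p = 9.17e-06). *Psmc2* fell from 190, 223 and 186 TPM to 51.7, 60.1 and 65.8 TPM (-1.83, SE 0.13, adjusted p = 1.23e-05). Neither gene overlapped between the groups, and *Psmc6* was the ATPase that did not pass (-0.34).

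In the lid, 4 of 8 subunits fell, and *Psmd13* went from 61.9, 55.9 and 58.8 TPM to 13.8, 15.5 and 14.2 TPM (-2.04, SE 0.14, adjusted p = 1.11e-05). *Psmd14*, the lid enzyme that removes ubiquitin, fell by 0.85, *Psmd8* by 0.83 and *Psmd6* by 0.70 on the log2 scale. None of the 3 base subunits *Psmd1*, *Psmd2* and *Psmd4*, which dock ubiquitin carriers, passed the test, with values from -0.26 to 0.05. Of the chaperones, *Psmg3* fell from 58.1, 58.7 and 53.8 TPM to 24.4, 23.2 and 28.1 TPM (-1.31, SE 0.16, adjusted p = 0.000348) while *Psmd10* (-0.97) no longer passed when DMSO replicate 1 or 2 or dTAG13 replicate 1 or 2 was left out (adjusted p = 0.0587 to 0.154). *Psmf1*, which encodes the regulator PI31, fell by 1.03 and *Psma5* by 1.07. Without dTAG13 replicate 1, the library with immune markers, 19 members fell and 9 were called. Of the 23 that fell, 18 passed whichever library was left out.

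**Figure D2:**
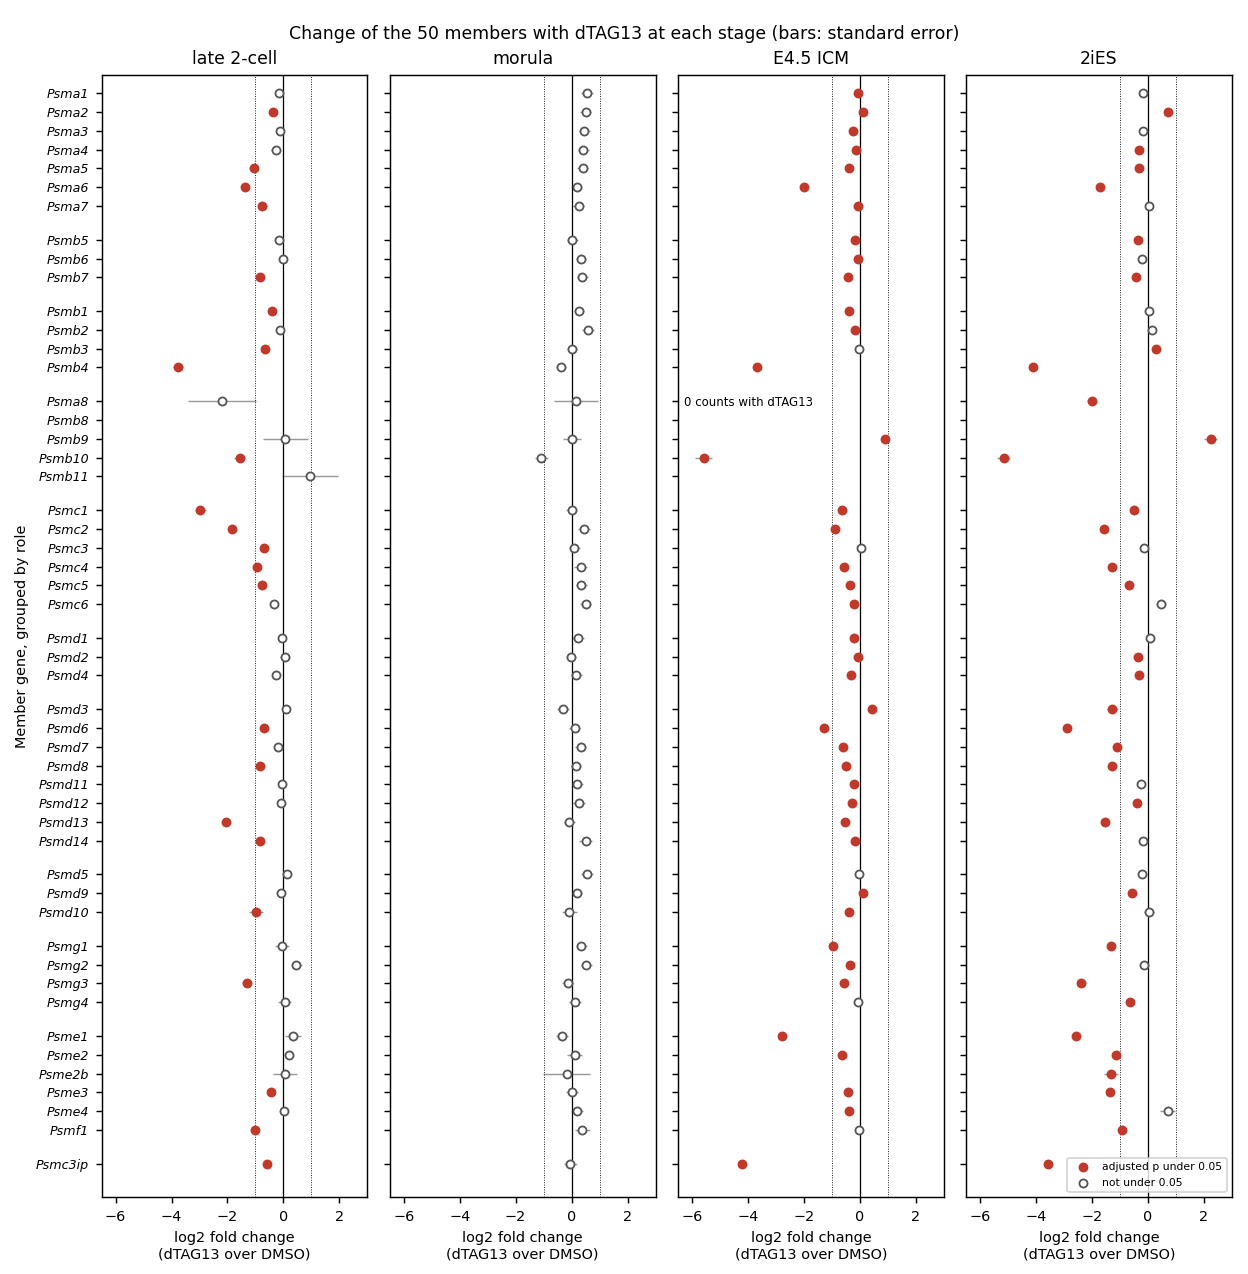
Log2 fold change of dTAG13 over DMSO (x axis) for each member (y axis, grouped by role) at the 4 stages; bars are standard errors, filled points passed an adjusted p-value under 0.05 and dotted lines mark 2-fold. *Psmb4* lies near -4 at 3 stages and at -0.39 in morulae; no point is drawn for *Psma8* in the E4.5 ICM, where both dTAG13 libraries had 0 counts, or for members not tested.

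In morulae none of the 48 members tested passed in either direction, where 0.205% of the 13667 genes tested fell and 0.161% rose. At an unadjusted p under 0.05 there were 1 lower and 8 higher members, against 6.91% and 6.66% of all genes, and DESeq2 called 1 lower and 0 higher. The members' median was 0.19 and that of all genes -0.02, and only 10 of the 48 were negative, against 52.0% of all genes. In 6 members both dTAG13 libraries were below both DMSO libraries and in 19 they were above, against 23.5% and 20.1% of all genes. Of the genes that fell in late 2-cell embryos, *Psmb4* held 515 and 461 TPM with DMSO and 331 and 352 TPM with dTAG13 (log2 fold change -0.39, SE 0.19, adjusted p = 0.385), *Psmc1* 233 and 302 against 268 and 270 TPM, and *Psma6* 715 and 859 against 822 and 943 TPM. Of these only the *Psmb4* libraries did not overlap. *Psmb10* was the member with the lowest value, at 59.8 and 57.7 TPM with DMSO and 23.8 and 27.6 TPM with dTAG13 (-1.08, SE 0.25, adjusted p = 0.0831), and it was the 1 member that DESeq2 called. The first DMSO library was the lower of the 2 for the summed core, ATPase and lid genes. Without the second DMSO library, 10 members were higher and 1 lower.

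The dTAG13 effect was then compared between stages by the interaction term. Between the late 2-cell stage and the morula it differed by at least 1 log2 unit for 14 of the 50 members, against 4.14% of the 21915 genes tested, and in all 14 it was the more negative at the late 2-cell stage. The count was 21 without morula DMSO replicate 2 and 12 to 15 when any other library of these 2 stages was left out. The difference was -3.47 (SE 0.22) for *Psmb4*, -3.07 (SE 0.24) for *Psmc1*, -2.36 (SE 0.22) for *Psmc2*, -2.05 (SE 0.18) for *Psmd13* and -1.64 (SE 0.17) for *Psma6*. Stage and the window of dTAG13 exposure changed together and cannot be told apart.

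In the E4.5 ICM, 38 of the 47 members tested fell and 4 rose, while 38.5% of the 15840 genes tested fell and 38.4% rose. Most falls were small: 7 members, *Psmc3ip* among them, were called with at least 2-fold, or 14.9%, near the 13.2% of all genes. The members' median was -0.36, against 0.01 for all genes, and 42 of 47 were negative, against 49.7% of all genes. Both dTAG13 libraries were below both DMSO libraries in 36 members and above in 7, against 40% and 44.8% of all genes. Of the 7 trophectoderm markers all 7 were higher with dTAG13, their sum running from 67.1 to 73.0 TPM with DMSO and from 788 to 789 TPM with dTAG13. Of the 7 naive epiblast markers all 7 were lower, from 685 to 702 TPM in sum with DMSO and from 357 to 364 TPM with dTAG13. The 6 primitive endoderm markers summed to between 234 and 242 TPM with DMSO and to 310 TPM in both dTAG13 libraries, with 2 lower and 3 higher. Mitochondrial transcripts took 3.88 and 3.78% of the counts with DMSO and 6.02 and 5.96% with dTAG13. The part of these markers and of this share in the changes was not tested. Changed shares of the cell types and changed RNA per cell cannot be told apart in these libraries alone.

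*Psmb4* again led the constitutive genes, at 372 and 373 TPM with DMSO and 28.9 and 28.8 TPM with dTAG13, a 12.7-fold fall (-3.66, SE 0.042, adjusted p = 1.27e-40). *Psma6* went from 633 and 639 TPM to 166 and 166 TPM, a 3.95-fold fall (-1.98, SE 0.028, adjusted p = 2.29e-37). *Psmd6*, a lid subunit, went from 316 and 321 TPM to 135 and 133 TPM (-1.30, SE 0.029, adjusted p = 3.65e-31). In each the groups were wide apart. The 2 ATPases that led in late 2-cell embryos fell less, *Psmc2* by 0.90 and *Psmc1* by 0.63, and *Psmd13* fell by 0.52.

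Other members of the same rings were close to their control levels. *Psmb6* was at 1231 and 1252 TPM with DMSO and 1227 and 1204 TPM with dTAG13, and *Psma7* at 1044 and 1043 against 1025 and 1012 TPM. Their log2 fold changes of -0.06 and -0.07 passed the test but turned positive under upper-quartile scaling, as did those of *Psma1* (-0.06) and *Psmd2* (-0.08), and the TPM of *Psmd2* was higher with dTAG13 (149 and 145 against 154 and 160). The summed 14 core genes were at 9650 and 9673 TPM with DMSO and 8384 and 8213 TPM with dTAG13. Of the 4 members that rose, *Psmd3* (0.45) belongs to the lid, *Psma2* (0.12) to the alpha ring and *Psmd9* (0.12) to the base chaperones, and *Psmb9* is described below with the inducible subunits. When all 18 libraries shared 1 estimate of the spread, 20 members fell and 1 rose.

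Against the late 2-cell stage, the dTAG13 effect in the E4.5 ICM differed by at least 1 log2 unit for 7 members, or 14.0%, near the 15.9% of all genes. It was the stronger fall at the late 2-cell stage for *Psmc1* (late 2-cell minus E4.5 ICM -2.36, SE 0.24), *Psmd13* (-1.54) and *Psmf1* (-1.02). It was the stronger fall in the E4.5 ICM for *Psmb10* (4.00, SE 0.39), *Psmc3ip* (3.59), *Psme1* (3.10, SE 0.35) and *Psma8* (8.22, a value that depends on how 0 counts are treated).

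In 2iES cells treated for 24 h, 30 of the 48 members tested fell and 3 rose, where 28.1% and 26.5% of the 15511 genes tested did so. A fall of at least 2-fold was called for 18 members, or 37.5%, against 15.6% of all genes, and a rise for 1, *Psmb9*, against 12.4%. The median was -0.42 for the members and 0.03 for all genes. Both dTAG13 libraries were below both DMSO libraries in 37 members and above in 6, against 40.1% and 37.8% of all genes. Without DMSO replicate 1, the library with few mitochondrial transcripts, 32 members fell, 5 rose and 17 were called lower. Leaving out dTAG13 replicate 1 left 20 that fell, and leaving out replicate 2 left 21. Of the 33 that passed, 22 did so whichever library was left out. The naive epiblast markers summed to between 452 and 538 TPM with DMSO and between 310 and 340 TPM with dTAG13, with 2 of 7 lower and 1 higher by the test, and the part of this in the result was not tested.

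*Psmb4* held 454 and 375 TPM with DMSO and 23.5 and 23.8 TPM with dTAG13, a 17.1-fold fall (-4.10, SE 0.13, adjusted p = 1.88e-05). *Psmd6* went from 257 and 229 TPM to 29.8 and 32.6 TPM, a 7.39-fold fall (-2.89, SE 0.12, adjusted p = 2.23e-05). *Psma6* fell from 764 and 853 TPM to 228 and 235 TPM (-1.72, SE 0.11, adjusted p = 7.11e-05). These groups did not overlap, and *Psmb4* was the lowest core gene in either group, where its mean was 23.7 TPM with dTAG13, beside 232 TPM for the next core gene, and 414 TPM with DMSO, beside 435 TPM.

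In the 19S particle of 2iES cells the lid had a median of -1.19, against -0.58 for the ATPases and -0.31 for the base subunits. Of its 8 subunits 6 fell, 5 of them called, and their summed level was 2047 and 1817 TPM with DMSO and 1038 and 1045 TPM with dTAG13. Beside *Psmd6*, *Psmd13* fell by 1.54, *Psmd8* and *Psmd3* by 1.27 and *Psmd7* by 1.10 on the log2 scale. *Psmc2* fell from 295 and 288 TPM to 93.1 and 92.2 TPM (-1.57, SE 0.093, adjusted p = 5.78e-05) and *Psmc4* by 1.27. Of the chaperones of the 20S core, *Psmg3* fell from 68.0 and 58.5 TPM to 10.7 and 11.4 TPM (-2.38, SE 0.16, adjusted p = 8.31e-05), and *Psmg1* by 1.34. *Psmg4* (-0.65) no longer passed without dTAG13 replicate 1 (adjusted p = 0.120), and *Psmg2* did not pass (-0.16). The alpha subunit *Psma2* rose, from 385 and 484 TPM to 683 and 687 TPM (0.70, SE 0.14, adjusted p = 0.00538), and *Psmb3* (0.27) passed at adjusted p = 0.0484 but not without either dTAG13 library.

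Between the E4.5 ICM and 2iES cells the effect differed by at least 1 log2 unit for 5 members, against 13.9% of all genes. *Psmg3* (E4.5 ICM minus 2iES 1.75, SE 0.21), *Psmd3* (1.68, SE 0.25) and *Psmd6* (1.55, SE 0.19) were lower in 2iES cells, and for *Psme4* (-1.14) and *Psma8* (-8.47) the E4.5 ICM was the lower. *Psmd3* had opposite signs, at 84.9 and 89.2 against 123 and 121 TPM in the E4.5 ICM and 23.2 and 16.3 against 7.81 and 8.20 TPM in 2iES cells. Dose, exposure and cell type differed together between these groups and cannot be told apart.

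Across the stages, 15 members, *Psmc3ip* among them, fell at the late 2-cell stage, in the E4.5 ICM and in 2iES cells. That is 31.9% of the 47 tested at all 3, against 6.38% of the 12329 genes tested there. Of the 15, 3 (*Psmb4*, *Psma6* and *Psmb10*) were called at least 2-fold lower at each of these stages. That is 6.38% of the 47 members, against 1.96% of all genes. Among the 786 genes of any kind that fell at all 3 stages, 242 were called so. The 15 included 4 ATPases (*Psmc1*, *Psmc2*, *Psmc4* and *Psmc5*), 3 lid subunits (*Psmd6*, *Psmd8* and *Psmd13*) and 4 constitutive core subunits (*Psma5*, *Psma6*, *Psmb4* and *Psmb7*), and 11 of them passed at all 3 stages whichever library was left out. The exceptions were *Psma5*, *Psmb7* and *Psmc1*, which did not pass in 2iES cells without either dTAG13 library, and *Psme3*, which passed in late 2-cell embryos in 1 of 6 such fits. Passing in opposite directions at 2 stages was seen for 4 members, *Psma2*, *Psmb3*, *Psmd3* and *Psmd9*, or 8.33%, near the 7.97% of all genes. *Psmd3* alone passed at both of its stages whichever library was left out. *Psma2* in late 2-cell embryos did not pass without DMSO replicate 1, dTAG13 replicate 1 or dTAG13 replicate 3 (adjusted p = 0.0609 to 0.0829), *Psmb3* and *Psmd9* in 2iES cells not without either dTAG13 library, and *Psmd9* in the E4.5 ICM, where its libraries overlapped, not without DMSO replicate 2 or dTAG13 replicate 1 (adjusted p = 0.0811 to 0.181). *Psmb8*, *Psmb11* and *Psmd5* passed at no stage, and of these *Psmb8* had too few counts for a test at any stage and *Psmb11* at all but the late 2-cell stage.

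**Figure D3:**
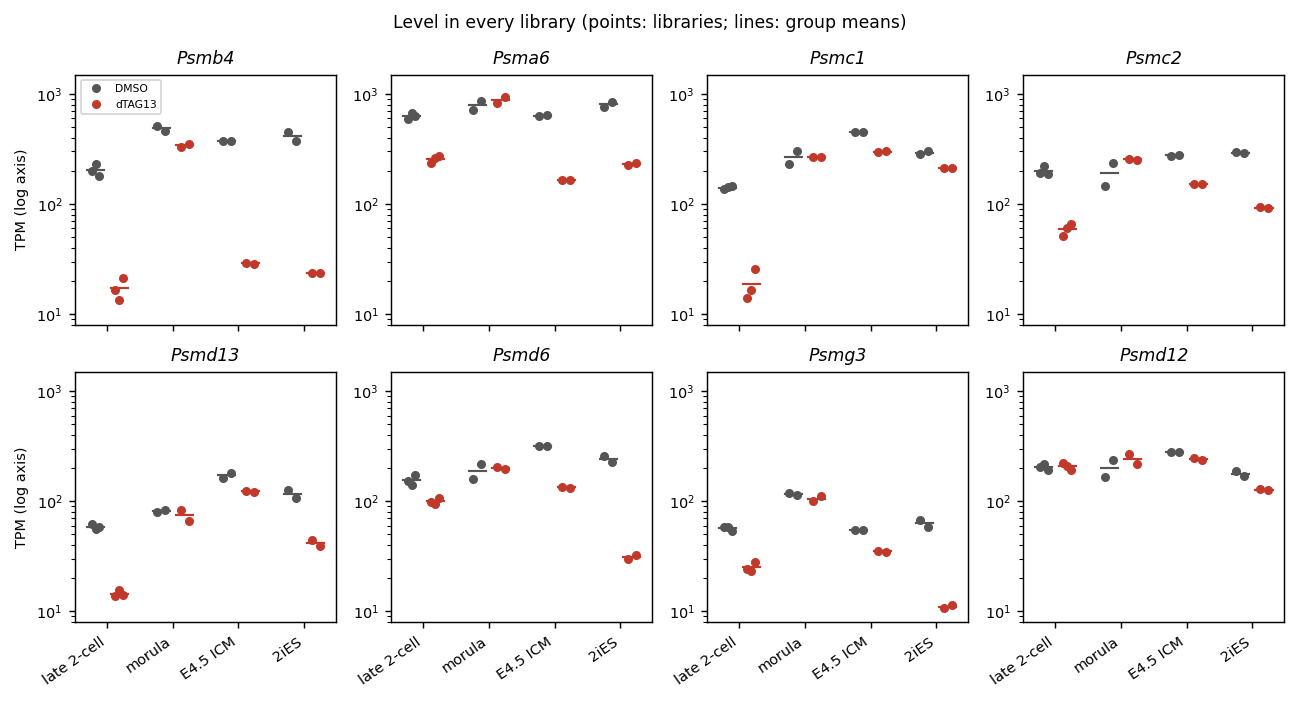
TPM on a log axis for 8 members in every library of the 4 stages (grey DMSO, red dTAG13, lines for group means). *Psmb4* drops below 30 TPM with dTAG13 at 3 stages, *Psmc1* does so at the late 2-cell stage alone, *Psmd6* and *Psmg3* are lowest in 2iES cells, and *Psmd12* changes little.

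The inducible and tissue-specific subunits held some of the largest changes, in both directions. *Psmb10*, the interferon-induced counterpart of *Psmb7*, held 44.7, 50.1 and 51.2 TPM against 19.1, 17.1 and 14.9 TPM in late 2-cell embryos (-1.56, SE 0.20, adjusted p = 0.000615). In the E4.5 ICM it held 24.3 and 24.9 TPM against 0.78 and 0.40 TPM (-5.58, SE 0.29, adjusted p = 2.26e-19), and in 2iES cells 152 and 131 TPM against 4.26 and 3.11 TPM (-5.16, SE 0.22, adjusted p = 2.44e-05). The groups did not overlap at any of these stages, and the 2iES fall was 35.8-fold.

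*Psmb9*, the counterpart of *Psmb6*, moved the other way. It held 25.2 and 28.9 TPM with DMSO and 58.2 and 58.0 TPM with dTAG13 in the E4.5 ICM (0.92, SE 0.065, adjusted p = 2.02e-15), and 1.25 and 1.59 TPM against 5.58 and 7.38 TPM in 2iES cells (2.24, SE 0.23, adjusted p = 0.000412). Its exons overlap those of the antisense gene *Tap1*, the peptide transporter of antigen presentation, over 5.79% of their bases, and *Tap1* rose at the same stages (2.64 and 3.66). The libraries were not stranded, so reads in that overlap cannot be assigned. *Psmb8*, the counterpart of *Psmb5*, was at 0.40 TPM or less in all but 1 library, late 2-cell dTAG13 replicate 1 with 3.54 TPM, the library that held the immune markers.

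*Psma8* had no counts with dTAG13 in the E4.5 ICM, against 7.63 and 6.71 TPM with DMSO, which is at least 58.6-fold lower when 3 counts per library are taken as the floor. In 2iES cells it fell from 13.7 and 10.9 TPM to 3.39 and 3.64 TPM (-1.999, SE 0.18, adjusted p = 0.000258). *Psme1*, an 11S subunit, went from 60.5 and 58.6 TPM to 9.97 and 10.3 TPM in the E4.5 ICM (-2.78, SE 0.089, adjusted p = 3.72e-26) and from 203 and 160 TPM to 29.2 and 29.2 TPM in 2iES cells (-2.58, SE 0.15, adjusted p = 5.78e-05). At the late 2-cell stage its libraries overlapped (0.34, adjusted p = 0.569). *Psme2*, its partner in the 11S ring, fell by 0.63 and 1.16 on the log2 scale in the E4.5 ICM and 2iES cells, and *Psme3*, the nuclear 11S form, by 0.41 and 1.35. *Psme2b* shares 78.4% of its 31-base words with *Psme2*, so its own values are uncertain.

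The interferon response list gives no common direction beside these. Of its 9 genes, 6 were tested in the E4.5 ICM, where 4 rose and 1 fell, and 7 in 2iES cells, where 4 rose and 2 fell, with medians of 0.44 and 0.37. Among all genes tested, 38.4% rose and 38.5% fell in the E4.5 ICM, and 26.5% and 28.1% in 2iES cells. *Nlrc5* rose in 2iES cells from a level near 0 (3.96), while *Irf1* (-1.14) and the class I gene *H2-K1* (-1.08) fell there, and *Tapbp* fell in the E4.5 ICM (-1.04). No gene of the list passed at the late 2-cell stage or in morulae.

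**Figure D4:**
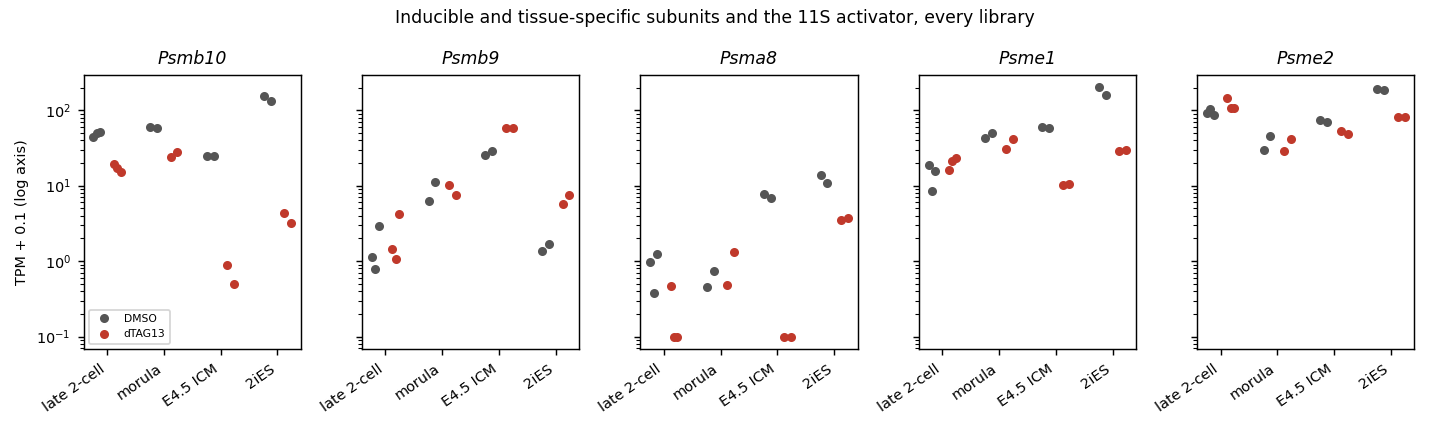
TPM plus 0.1 on a log axis for *Psmb10*, *Psmb9*, *Psma8*, *Psme1* and *Psme2* in every library (grey DMSO, red dTAG13). *Psmb10* is lower with dTAG13 at every stage, though in morulae the test was not passed, *Psmb9* is higher in the E4.5 ICM and 2iES cells, and *Psma8* is at 0 in both E4.5 ICM dTAG13 libraries.

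*Psmc3ip*, which is no proteasome gene, fell from 115, 115 and 111 TPM to 79.1, 79.3 and 78.4 TPM in late 2-cell embryos (-0.60, SE 0.10, adjusted p = 0.00351). It fell from 39.6 and 37.8 TPM to 2.88 and 1.84 TPM in the E4.5 ICM (-4.21, SE 0.13, adjusted p = 5.62e-27) and from 77.0 and 67.7 TPM to 5.73 and 5.09 TPM in 2iES cells (-3.57, SE 0.16, adjusted p = 2.50e-05). The groups were apart at all 3 stages. Over 21.2% of its exonic bases it overlaps the antisense gene *Mlx*, whose log2 fold change was -1.27 in 2iES cells and 0.16 in the E4.5 ICM, and without strand the reads of the 2 genes cannot be told apart there.

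The promoter windows were then set beside these changes. CCGGAAG, on either strand, was in the window of 15 of the 42 members matched (35.7%), against 9.93% of the 27025 genes and 8.86% of the 32851 windows in the table. Of the 15, 8 fell in late 2-cell embryos, 15 in the E4.5 ICM and 12 in 2iES cells, and of the matched members without it 12 of 26, 17 of 24 and 14 of 25 fell. Median log2 fold changes with and without the sequence were -0.43 and -0.22 in late 2-cell embryos, 0.17 and 0.22 in morulae, -0.52 and -0.18 in the E4.5 ICM and -1.34 and -0.34 in 2iES cells. At every stage the range of the members with it lay inside the range of those without. CGGAAG alone was in 54.8% of the matched members and 18.8% of all genes, and the longer ACCGGAAG in 16.7% and 2.60%, each of these sequences holding the shorter ones. Split by CGGAAG, the late 2-cell ranges lay the other way round. Members with CGGAAG ran from -3.77 to 0.96 (median -0.60) and those without from -1.56 to 0.34 (median -0.14). At the other stages the range of the members with CGGAAG lay inside that of the members without.

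*Psmb4*, *Psmb10* and *Psme1* had no CCGGAAG in these windows and were among the members that fell most. The *Psmb4* window did hold the shorter CGGAAG, and those of *Psmb10* and *Psme1* did not. On the other side, *Psmd12*, whose CCGGAAG lies 17 bases before the start as printed above, held 203, 218 and 193 TPM with DMSO and 224, 210 and 191 TPM with dTAG13 in late 2-cell embryos and fell by 0.28 in the E4.5 ICM. In 2iES cells *Psmd12* (-0.41, adjusted p = 0.0106) did not pass without either dTAG13 library. *Psmd11* and *Psmd2*, which also hold the sequence, had late 2-cell log2 fold changes of -0.06 and 0.05. The letters TGACNNNGC, the antioxidant response element that NFE2L1 can bind, stood in 6 of the 42 windows (14.3%), against 14.0% of all genes. A match gives only the letters of the window, not binding.

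**Figure D5:**
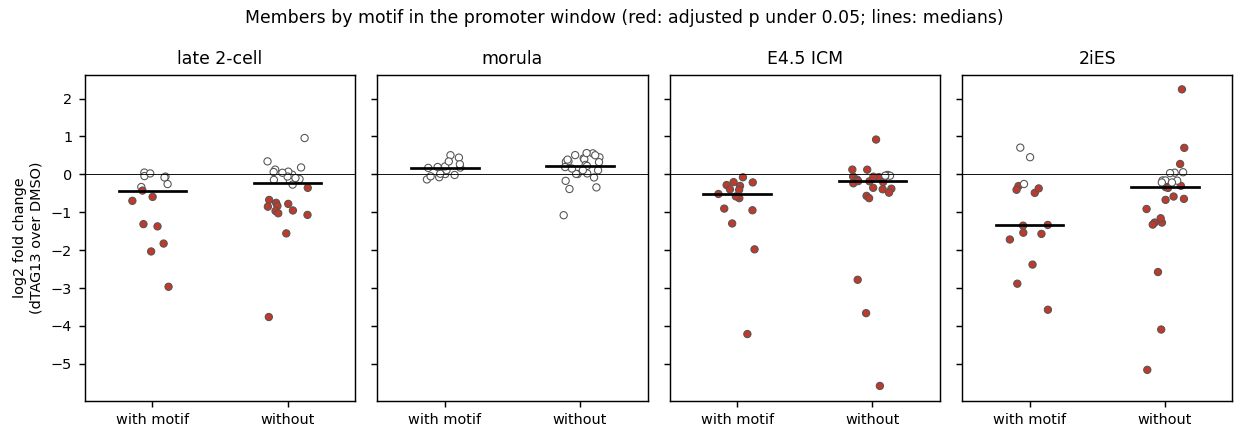
Log2 fold change of dTAG13 over DMSO (y axis) for matched members with CCGGAAG in the promoter window and without it, at the 4 stages; red points passed an adjusted p-value under 0.05 and lines are medians. The medians are -1.34 and -0.34 in 2iES cells, and the lowest points of the late 2-cell, E4.5 ICM and 2iES panels are in the column without the sequence. The lowest late 2-cell point is *Psmb4*, whose window holds the shorter CGGAAG.

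A further list held 24 proteasome-associated genes outside the symbol rule, of which 23 were in the tables and tested. It had 3 lower and no higher genes in late 2-cell embryos, beside 7.24% and 1.32% of all genes. None passed in morulae (smallest edgeR adjusted p = 0.31), beside 0.205% of all genes lower and 0.161% higher. In the E4.5 ICM 5 were lower and 17 higher, beside 38.5% and 38.4% of all genes. In 2iES cells 3 were lower and 8 higher, beside 28.1% and 26.5%. *Pomp*, the chaperone that every 20S beta ring is built on, was lower at the same stages as *Psmb4*: from 163 TPM ± 13.2 (SD, n = 3) to 40.4 ± 9.90 in late 2-cell embryos, from 370 ± 29.4 to 39.4 ± 3.18 (n = 2) in the E4.5 ICM and from 326 ± 27 to 13.1 ± 1.78 in 2iES cells, with log2 fold changes of -2.20, -3.57 and -4.69 (SE 0.15, 0.042 and 0.13). In morulae it held 586 ± 9.69 and 424 ± 47.7 TPM (-0.30, adjusted p = 0.537).

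*Adrm1*, the ubiquitin receptor of the 19S base, fell by 0.59, 0.62 and 1.14 on the log2 scale at the late 2-cell stage, in the E4.5 ICM and in 2iES cells. *Txnl1*, a thioredoxin bound to the 19S particle, fell by 1.15 in late 2-cell embryos and rose by 0.25 and 0.57 in the E4.5 ICM and 2iES cells. *Akirin2* (1.56) and *Zfand5* (1.08) rose and *Ubqln4* (-1.11) fell in the E4.5 ICM. *Nfe2l1* RNA fell in the E4.5 ICM (-0.45) and did not pass elsewhere.

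Of the 5 genes of the ubiquitin ligase that dTAG13 recruits, none passed at the late 2-cell stage or in morulae. In the E4.5 ICM 4 rose and *Rbx1* fell (-0.21), with *Crbn*, the substrate receptor, at 0.84, and in 2iES cells 3 rose, *Cul4a* by 1.201 and *Cul4b* by 1.08. Among all genes tested, 38.4% rose in the E4.5 ICM and 26.5% in 2iES cells.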

How the data were processed

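The 18 RNA-seq libraries of the series were used. Its 27 other samples (chromatin assays) were not analysed here. Per the labels and the study's methods, the authors made the libraries with SMART-Seq v4 and Nextera XT, which do not mark strand, sequenced them in pairs and used Trimmomatic 0.39 for trimming, STAR for alignment to GRCm38 and RSEM for the gene values. The deposited tables hold RSEM expected counts (estimated, not whole), TPM and FPKM per gene, as the authors computed them. Of the gene IDs, 54487 matched the annotation with their version, 657 without it and 241 not at all.

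Expected counts were rounded and tested with edgeR 4.0.16 (R 4.3.3, quasi-likelihood, TMM scaling) within each stage, over genes that reached 10 counts in a number of libraries no smaller than the smaller group, with Benjamini-Hochberg adjustment over all genes tested. A gene passed with an adjusted p-value under 0.05, and was called where the change was also 2-fold or more and the mean FPKM of 1 group reached 1, the cut-offs of the study. Differences between stages came from 1 fit of all 18 libraries, and differences between controls from 1 fit of the DMSO libraries. TPM values are described without a test. The alternatives were DESeq2 1.42.0, its size factors, library totals only, no count filter, limma 3.58.1 on log2(TPM + 1), 1 fit of all 18 libraries, thinning to the smallest library, a replicate block and leaving out each library. Upper-quartile scaling and the crossed block were chosen after seeing the data. The edgeR steps were tested on simulated data. Tables and figures used Python 3.11.15, pandas 2.3.3, numpy 2.4.6, scipy 1.17.1 and matplotlib 3.10.9.

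The members and lists were chosen with earlier results of these data known. Full statistics went to the 8 members called with the largest changes at a stage, to members called at 2 or more stages or passing in opposite directions, and to inducible and tissue-specific subunits with a mean of at least 1 TPM. Genes of the other lists were named where they passed with at least 2-fold, apart from some that are not reported here. *Adrm1*, *Nfe2l1*, *Crbn* and *Rbx1*, and *Txnl1* outside the late 2-cell stage, were named after their values were seen. The 6 cumulus markers summed to at most 0.98 TPM in any library.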

Additional observations from a re-analysis of the deposited data

Results flagged for a closer look

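The dTAG13 effect differed between 2 stages, by the interaction term of the edgeR fit (adjusted p-value under 0.05 and at least 1 log2 unit), for the following members. A negative value means a lower effect at the first stage named.

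Between the late 2-cell stage and the morula the difference was -3.47 for *Psmb4*, -3.07 for *Psmc1*, -2.36 for *Psmc2* and -2.05 for *Psmd13*. It was -1.64 for *Psma6*, -1.56 for *Psma5*, -1.51 for *Psmf1* and -1.45 for *Psmd14*. Smaller differences were -1.36 for *Psmc4*, -1.32 for *Psmb7*, -1.27 for *Psmg3*, -1.22 for *Psmc5*, -1.09 for *Psma7* and -1.08 for *Psmd8*. All 14 kept an adjusted p-value under 0.05 under each of the 13 alternatives run, but under some of them *Psma7*, *Psmc5* and *Psmd8* fell short of 1 log2 unit (smallest differences -0.81, -0.95 and -0.76). The number of members past both limits was 11 with library totals only and 12 to 21 when 1 library was left out.

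Between the late 2-cell stage and the E4.5 ICM it was 8.22 for *Psma8*, 4.00 for *Psmb10*, 3.59 for *Psmc3ip* and 3.10 for *Psme1*, and -2.36 for *Psmc1*, -1.54 for *Psmd13* and -1.02 for *Psmf1*. *Psmf1* passed in 9 and *Psma8* in 11 of the 13 alternatives, and under some *Psmf1* fell short of 1 log2 unit (smallest difference -0.82).

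Between the E4.5 ICM and 2iES cells it was -8.47 for *Psma8*, 1.75 for *Psmg3*, 1.68 for *Psmd3*, 1.55 for *Psmd6* and -1.14 for *Psme4*. All 5 kept an adjusted p-value under 0.05 under each of the 11 alternatives run, but under some *Psme4* fell short of 1 log2 unit (smallest difference -0.74). The *Psma8* values rest on libraries with 0 counts and depend on the prior count of the fit.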

How the results depend on the processing

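All called member changes kept their direction under the alternatives run, and 1, *Psme2b* in 2iES cells, no longer passed when all 18 libraries shared 1 spread estimate (-1.27). That fit gave 1 higher member in late 2-cell embryos, 1 lower and 6 higher in morulae, 20 lower and 1 higher in the E4.5 ICM and 5 higher in 2iES cells. Library totals, no count filter, DESeq2 and the replicate block each gave 1 lower and 1 called morula member, *Psmb10*. Thinning gave 5 higher 2iES members, upper-quartile scaling 6 and library totals 8 higher 2iES than E4.5 ICM controls. ACCGGAAG was in 16.7% and CGGAAG in 54.8% of matched members. Leaving out 1 library gave 19 to 22 lower members in late 2-cell embryos, 0 to 1 lower, 0 to 1 called and 0 to 10 higher in morulae, 35 to 38 lower in the E4.5 ICM, 20 to 36 lower and 2 to 7 higher in 2iES cells, and 2 to 5 members higher in E4.5 ICM than in morula controls. The highest morula counts came without DMSO replicate 2, and the 7 without 2iES DMSO replicate 2. The cause of these shifts was not tested.

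Replicate numbers did not pair the samples: same-numbered deviations correlated at 0.0559 to 0.123 in late 2-cell embryos, 0.0296 in morulae, -0.0457 in the E4.5 ICM and -0.241 in 2iES cells. With the replicate block 22, 38 and 25 members were lower at the late 2-cell stage, in the E4.5 ICM and in 2iES cells, and with crossed 2iES numbers 30 were lower and 5 higher. Upper-quartile scaling moved the median of all genes to 0.14, 0.11 and 0.21 at these stages, with members at -0.22, -0.25 and -0.24. With 2 libraries per group at most stages, small changes may be missed in morulae, whose libraries were also the shallowest.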

Other observations

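Of the 50 members, 10 (20%) start within 1000 bases of a gene on the other strand that reads away from them, against 12.6% of 22028 protein-coding genes. The pairs below were chosen after their values were seen. *Dnajc2*, which encodes a ribosome-associated chaperone and starts 32 bases from *Psmc2*, fell with it, by 1.08 in late 2-cell embryos, 0.33 in the E4.5 ICM and 0.70 in 2iES cells on the log2 scale (edgeR adjusted p = 0.000278, 2.30e-11 and 0.00131). *Ftsj3*, a ribosomal RNA processing gene 75 bases from *Psmc5*, fell by 1.16, 0.74 and 1.51 at the same stages. *Mrpl32*, a mitochondrial ribosomal protein gene beside *Psma2*, rose by 0.50 in the E4.5 ICM and 0.69 in 2iES cells, where *Psma2* rose too, and was at -0.16 in late 2-cell embryos (adjusted p = 0.47), where *Psma2* was lower. Other pairs did not move together in 2iES cells, where *Tbp* was at -0.87 beside *Psmb1* at 0.04, *Atg4a* at 1.01 beside *Psmd10* at 0.03, and *Rnf31* at -0.05 beside *Psme2* at -1.16.

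Some values may hold reads of other genes. *Psmb5* shares 71.7% of its 31-base words with *Gm3375*, *Psma5* shares 61.0% with *Gm8394*, and *Psmc1* shares 32.2%. *Psmd13* overlaps the antisense gene *Sirt3* over 10.1% of its exonic bases, and *Sirt3* rose by 1.08 in 2iES cells.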
